A study of Mus musculus with 24 samples.

Results

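Myeloid progenitors (MP) carrying a reduced level of Dnmt1 were compared with wildtype MP across all genes of an Affymetrix expression array. The comparison takes 6 of the 13 arrays of the study, 3 from Dnmt1 hypomorph mice and 3 from wildtype mice, and 12765 of the 18194 genes represented were tested. Hypomorph mice were 129ola Dnmt1-/chip and wildtype mice 129ola Dnmt1+/+, all aged 8 to 12 weeks, and the cells came from bone marrow by fluorescence-activated sorting. In this genotype a null allele of Dnmt1 is paired with an allele of reduced function, so some enzyme remains, and every cell of the animal carries it. RNA of 35000 to 100000 sorted cells went onto each array. The labels give neither the surface gate that defined MP nor the number of animals behind an array, so p-values measure the spread between arrays. The further arrays of the study held haematopoietic stem cells (HSC) of both genotypes (3 hypomorph and 2 wildtype) and B cell progenitors of the wildtype (2). They share the estimate of spread with the MP arrays in the fit.

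Dnmt1 is the maintenance DNA methyltransferase. It copies methylation at CpG sites onto the new strand after replication, so cells with too little of it lose methylation as they divide. Methylation of CpG-rich promoters is known to hold germ line genes silent in body cells. Myeloid progenitors descend from the stem cell, divide often and give rise to granulocytes, monocytes, red cells and platelets, and part of the early progenitor pool also carries lymphoid transcripts at a low level.

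Levels are log2 intensities and differences are log2 fold changes of hypomorph MP over wildtype MP, followed by limma's standard error. A gene was called, and is said to have risen or fallen, where limma's moderated t test gave a Benjamini-Hochberg adjusted p under 0.05 over all genes tested. Array medians lay between 4.56 and 4.66, and MP arrays correlated at 0.987 to 0.996 within a genotype and at 0.974 to 0.99 between genotypes. The sorted cells carried their markers: the 12 progenitor markers averaged 11.47 to 11.67 on hypomorph arrays and 11.55 to 11.63 on wildtype arrays, against 8.75 in wildtype HSC. Without Fcgr3, itself called higher, the other 11 averaged 11.60 to 11.83 in hypomorph MP and 11.78 to 11.90 in wildtype MP. These means cover members that moved both ways, from -1.19 for Kit to 1.11 for Fcgr3. Csf3r and Gata2 stood higher in wildtype HSC, at 9.73 and 10.92, than in wildtype MP, at 9.44 and 10.36. Mpo, the myeloperoxidase of granules, stood at 14.54, 14.45 and 14.60 in hypomorph MP, against 14.57, 14.63 and 14.58 in wildtype MP. B cell markers averaged 5.40 to 5.60 in hypomorph MP and 5.12 to 5.37 in wildtype MP, against 10.80 in B progenitors. T and NK cell markers averaged 4.97 to 5.06 in hypomorph MP and 4.92 to 5.18 in wildtype MP. The sexes of the animals were not given, so their balance is not known, and sex-linked signals differed between arrays. Eif2s3y, a Y-linked gene, stood at 9.22, 2.87 and 8.10 in hypomorph MP, against 9.35, 8.93 and 2.75 in wildtype MP, and Xist of the inactive X chromosome at 8.13, 12.38 and 12.44 in hypomorph MP, against 12.08, 11.66 and 12.81 in wildtype MP. Hypomorph replicate 3 and wildtype replicates 1 and 2 were high in both genes. Hypomorph replicate 1 was high in Eif2s3y, and its Xist lay below the other MP arrays but above the 4.61 of B progenitor replicate 1. Neither gene was called.

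Dnmt1 itself was lower in all hypomorph arrays. It stood at 8.01, 8.24 and 8.17 in hypomorph MP, against 11.41, 11.30 and 11.73 in wildtype MP, a log2 fold change of -3.34 ± 0.22 (adjusted p = 7.28e-06), or 10.1-fold lower. In HSC the same comparison gave -2.75 ± 0.24 (adjusted p = 2.85e-05). With p-values adjusted over the tested probe sets with 1 gene symbol, as for other probe sets of named genes below, all 3 probe sets of Dnmt1 were called, at -3.34, -3.15 and -1.67. Among 23 tested genes of the DNA methylation machinery, which held the de novo methyltransferases, the Tet enzymes and methyl-CpG binding proteins but not Dnmt1, 1 rose and none fell, with a median of -0.20 against -0.02 over all genes. The exception was Gadd45b, a stress-induced gene linked to demethylation and described with the growth genes below. Uhrf1, the partner that brings Dnmt1 to replicated DNA, had a log2 fold change of 0.32 (adjusted p = 0.639). Dnmt3a, a de novo methyltransferase, had one of -0.40 (adjusted p = 0.311), and Uhrf2 one of -1.14 (adjusted p = 0.132).

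Across the array, 75 genes (0.588% of those tested) were called, 43 higher (0.337%) and 32 lower (0.251%) in hypomorph MP. Of these, 71 changed at least 2-fold, 41 higher and 30 lower, and 16 rose and 12 fell at least 4-fold. The 3 hypomorph arrays did not overlap the 3 wildtype arrays for any of the 75 genes. That separation alone is common: it held for 11.4% of all tested genes in the higher and 16.3% in the lower direction. Most genes moved little, with a median absolute log2 fold change of 0.24 and a 95th percentile of 0.86. At an unadjusted p under 0.05 there were 1911 genes, 738 higher and 1173 lower. The genes that rose were dim in wildtype MP, with a median level of 5.88 against 7.61 over all genes, and 5 of the 43 lay below 4.64, the median of all array values. Of the 32 that fell, 12 lay below 4.64 in hypomorph MP. No detection calls were used, so whether such dim signals exceed background is not known. The count of 75 depended on single arrays: it was 38 without hypomorph replicate 2, 43 without wildtype replicate 1, 40 without wildtype replicate 3, 183 without wildtype replicate 2 and 129 without HSC hypomorph replicate 3. Leaving out hypomorph replicate 1 gave 50 calls and 28 genes higher. In every fit that left out 1 of the 6 MP arrays, 31 of the 75 genes stayed called, 19 higher and 12 lower. The volcano plot shows how few genes separate from the rest.

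**Figure D1:**
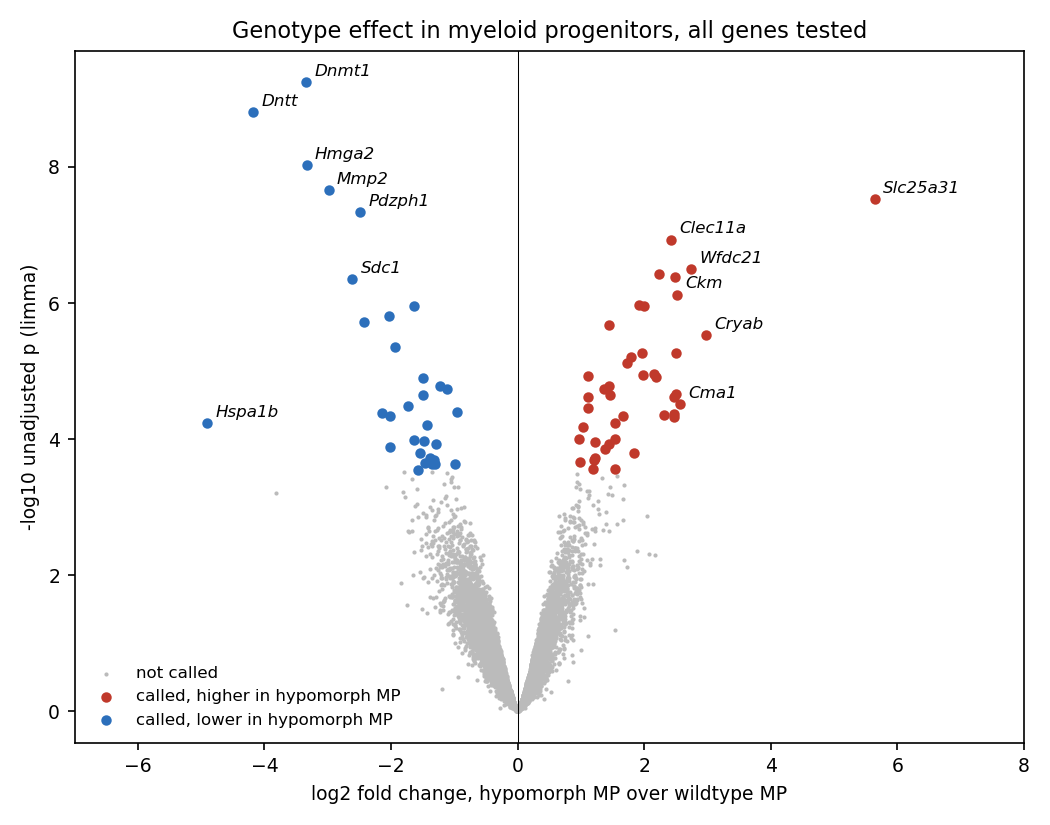
Log2 fold change of hypomorph MP over wildtype MP (x axis) against -log10 of the unadjusted limma p (y axis) for the 12765 genes tested, with the 43 genes called higher in red and the 32 called lower in blue. Slc25a31 at 5.65 and Hspa1b at -4.91 are the farthest out on either side, and Dnmt1 has the smallest p.

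The called genes are described below by what they are known to do. This grouping was made after their values were seen, so the size of a group is no finding. The largest rise of all was in Slc25a31, a mitochondrial carrier of ADP and ATP that male germ cells use during meiosis. It stood at 9.08, 8.93 and 8.25 in hypomorph MP, against 3.47, 3.91 and 1.93 in wildtype MP, a log2 fold change of 5.65 ± 0.50 (adjusted p = 7.51e-05). In the wildtype it was among the dimmest signals of the array, at 2.77 in HSC and 2.83 in B progenitors, and 1.93 is the lowest of all values. Whether the wildtype signal exceeds background is not known, so the size of the fold is uncertain. All 3 hypomorph arrays were far above the highest wildtype MP array.

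A further 6 called genes are known from the germ line. Syce1 and Tex12 encode parts of the central element of the synaptonemal complex, which holds paired chromosomes together in meiosis. Syce1 stood at 6.74, 6.01 and 6.40 in hypomorph MP, against 3.86, 3.94 and 3.81 in wildtype MP, a log2 fold change of 2.51 ± 0.40 (adjusted p = 0.0079). Tex12 stood at 6.77, 5.91 and 5.43 in hypomorph MP, against 3.64, 3.39 and 3.63 in wildtype MP, a log2 fold change of 2.48 ± 0.28 (adjusted p = 0.00052). Rec8 and Stag3 encode subunits of meiotic cohesin, the ring that ties sister chromatids. Rec8 stood at 7.92, 7.50 and 7.53 in hypomorph MP, against 5.52, 5.90 and 5.80 in wildtype MP, and rose by 1.91 ± 0.23 (adjusted p = 0.000952). Stag3 rose less, by 1.46 ± 0.23 (adjusted p = 0.0079), with 6.38, 6.73 and 6.78 in hypomorph MP, against 5.16, 5.44 and 4.93 in wildtype MP. In wildtype HSC Rec8 stood at 7.98, above its level in wildtype MP. The other two, Rpl39l, a ribosomal protein gene used in testis, and Ly6k, a surface protein of male germ cells, were more uneven. Rpl39l stood at 5.98, 8.00 and 6.13 in hypomorph MP, against 4.09, 4.18 and 4.42 in wildtype MP, with hypomorph replicate 2 well above the others, and rose by 2.48 ± 0.42 (adjusted p = 0.0124). Rpl39l resembles the widely used Rpl39 closely, and its probe set may read both. Ly6k stood at 7.62, 7.54 and 6.90 in hypomorph MP, against 4.51, 5.42 and 5.17 in wildtype MP and rose by 2.32 ± 0.39 (adjusted p = 0.0124). Rpl39l lost its call without wildtype replicate 1 (adjusted p = 0.0734). Ly6k lost its call without hypomorph replicate 1 or 2 or wildtype replicate 1 or 3 (adjusted p = 0.0529 to 0.0857). Stag3 lost its call without hypomorph replicate 2 or wildtype replicate 3 (adjusted p = 0.0527 to 0.0639). Rpl39l also lost it when only the 6 MP arrays were fitted (adjusted p = 0.0502).

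The germ line and meiosis list puts Slc25a31, Syce1, Rec8 and Stag3 beside others of their kind. It does not hold Tex12, Rpl39l or Ly6k. Of its 53 genes, 43 were on the array and 16 passed the filter on dim signals. Dazl, Sycp3, Mael and Tdrd1 were among those that did not, since they reached 4.64 on fewer than 2 of the 13 arrays, hypomorph arrays included. Of the 16, 4 lay below 4.64 on every wildtype array of the study and passed through hypomorph arrays alone: Slc25a31, Syce1, Ldhc and Ddx4. Slc25a31, Syce1, Rec8 and Stag3 rose and none fell, beside 0.337% of all genes that rose. Since 2 of these 4 were tested only because they were high in hypomorph cells, nothing is read from the count. The next in order were Tex11, at 1.00 (adjusted p = 0.452), Ldhc of sperm glycolysis, at 0.72 (adjusted p = 0.245), and Syce2, at 0.43 (adjusted p = 0.403). Ddx4, the germ cell helicase, had a log2 fold change of -0.35 (adjusted p = 0.573), and Stra8, which starts meiosis, one of 0.02 (adjusted p = 0.969). The 16 had a median of 0.34, which carries the same limit.

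Promoters are printed here because DNA methylation acts at CpG sites, and the start regions of the genes that rose differ widely in how many they hold. Of the 12 largest rises 9 had a window in the tables, and the 8 largest of these are shown. The windows are RefSeq sequences of mouse build GRCm38.p6, running from 250 bases before to 50 bases after the gene start, 5′ to 3′ on the gene's strand. Every CpG is in capitals. The first 4 belong to germ line genes, at chr3:40708621-40708920 (plus strand) for Slc25a31, chr9:50561219-50561518 (minus strand) for Tex12, chr7:140787805-140788104 (minus strand) for Syce1 and chr16:10169978-10170277 (plus strand) for Rpl39l. The others belong to Ckm of muscle, at chr7:19410844-19411143 (plus strand), Cma1 of mast cells, at chr14:55944626-55944925 (minus strand), S100a6, a calcium-binding protein, at chr3:90612644-90612943 (plus strand), and Islr of stromal cells, at chr9:58158505-58158804 (minus strand).
Slc25a31: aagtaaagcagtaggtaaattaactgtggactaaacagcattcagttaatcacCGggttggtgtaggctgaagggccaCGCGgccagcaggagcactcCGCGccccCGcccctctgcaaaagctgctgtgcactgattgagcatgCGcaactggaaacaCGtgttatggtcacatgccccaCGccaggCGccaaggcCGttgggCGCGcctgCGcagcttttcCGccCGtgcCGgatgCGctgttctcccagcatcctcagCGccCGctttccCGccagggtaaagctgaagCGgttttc
Tex12: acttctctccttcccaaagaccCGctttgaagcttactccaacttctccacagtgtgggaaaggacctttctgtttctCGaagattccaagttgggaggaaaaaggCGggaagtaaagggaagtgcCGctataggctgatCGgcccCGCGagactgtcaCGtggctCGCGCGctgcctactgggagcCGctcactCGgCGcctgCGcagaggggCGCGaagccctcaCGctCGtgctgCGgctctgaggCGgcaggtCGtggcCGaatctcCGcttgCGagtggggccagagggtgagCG
Syce1: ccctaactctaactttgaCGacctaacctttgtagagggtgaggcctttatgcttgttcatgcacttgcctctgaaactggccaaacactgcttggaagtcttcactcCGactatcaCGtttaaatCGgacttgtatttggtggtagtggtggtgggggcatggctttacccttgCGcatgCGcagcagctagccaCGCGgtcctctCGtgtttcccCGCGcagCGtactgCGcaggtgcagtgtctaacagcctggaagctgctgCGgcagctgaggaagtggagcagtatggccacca
Rpl39l: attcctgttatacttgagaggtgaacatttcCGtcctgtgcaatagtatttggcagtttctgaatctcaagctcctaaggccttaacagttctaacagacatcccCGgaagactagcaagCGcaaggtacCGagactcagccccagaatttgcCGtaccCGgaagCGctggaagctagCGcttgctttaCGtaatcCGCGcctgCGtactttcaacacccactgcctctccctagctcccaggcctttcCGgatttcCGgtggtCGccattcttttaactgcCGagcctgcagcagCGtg
Ckm: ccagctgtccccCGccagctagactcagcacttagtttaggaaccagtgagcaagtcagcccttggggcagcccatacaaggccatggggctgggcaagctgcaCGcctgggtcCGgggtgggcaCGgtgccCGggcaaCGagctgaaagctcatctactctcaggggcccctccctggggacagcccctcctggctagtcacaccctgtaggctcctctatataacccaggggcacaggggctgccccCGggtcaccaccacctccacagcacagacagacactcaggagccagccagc
Cma1: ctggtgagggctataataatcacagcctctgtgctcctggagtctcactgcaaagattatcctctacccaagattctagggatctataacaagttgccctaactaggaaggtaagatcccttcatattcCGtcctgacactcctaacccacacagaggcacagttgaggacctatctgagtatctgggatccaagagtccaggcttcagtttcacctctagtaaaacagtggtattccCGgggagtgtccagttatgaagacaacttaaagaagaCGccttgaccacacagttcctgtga
S100a6: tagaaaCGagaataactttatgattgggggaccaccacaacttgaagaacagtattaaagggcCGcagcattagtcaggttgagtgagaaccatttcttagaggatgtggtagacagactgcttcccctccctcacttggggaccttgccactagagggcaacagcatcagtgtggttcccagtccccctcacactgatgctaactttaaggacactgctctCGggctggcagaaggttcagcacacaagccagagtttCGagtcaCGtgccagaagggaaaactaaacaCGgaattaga
Islr: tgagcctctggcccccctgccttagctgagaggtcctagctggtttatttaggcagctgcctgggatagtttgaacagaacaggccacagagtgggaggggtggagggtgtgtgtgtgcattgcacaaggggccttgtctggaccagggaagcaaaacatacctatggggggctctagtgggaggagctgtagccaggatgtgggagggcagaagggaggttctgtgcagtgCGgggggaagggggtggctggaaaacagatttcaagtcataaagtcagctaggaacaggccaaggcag
The windows hold 22 CpG sites for Slc25a31, 26 for Tex12, 14 for Syce1 and 17 for Rpl39l, against 7 for Ckm, 3 for Cma1, 6 for S100a6 and 1 for Islr. The ninth, of Clec11a, holds 4. The median over the 10280 tested genes with a promoter in the table was 20. For 6 of the 7 germ line genes a window was found, with a median of 20 CpG sites and a range of 14 to 30. Those 6 therefore held about as many CpG sites as the usual gene. The letters TCCCGC, or GCGGGA on the other strand, occurred in 4 of the 6 (66.7%), among them Slc25a31 and Tex12, and in 35% of all promoters in the table. Clec11a also held them, and over the 28 windows of genes called higher the share was 32.1%. The letters CACGTG, which read the same on both strands and themselves hold a CpG, occurred in 3 of the 6 (50%), again with Slc25a31 and Tex12, and in 10.1% of all. S100a6 also held them, and over the same 28 windows the share was 25%. No overlap of the 2 motifs was counted separately, and with 6 windows these shares are only a description. Only 28 of the 43 genes called higher (65.1%) had a window, so a comparison of CpG content over that whole set is void. Of the 32 genes that fell, 27 had one, with a median of 18. Methylation itself was not measured.

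Genes best known from muscle or nerve made up another 6 of the rises. Cryab, a small heat shock protein of lens and muscle, stood at 9.98, 9.95 and 10.06 in hypomorph MP, against 6.17, 7.65 and 7.22 in wildtype MP, a log2 fold change of 2.98 ± 0.39 (adjusted p = 0.00198). Its hypomorph arrays lay close together while the wildtype arrays were spread. A further probe set of Cryab was called too, at 1.53. Ckm, the creatine kinase of muscle, stood at 8.22, 7.43 and 7.30 in hypomorph MP, against 4.83, 5.43 and 5.13 in wildtype MP, a log2 fold change of 2.52 ± 0.29 (adjusted p = 0.000803). Tubb2b, a tubulin of developing neurons, stood at 5.35, 5.93 and 6.25 in hypomorph MP, against 3.77, 3.40 and 3.67 in wildtype MP and rose by 2.23 ± 0.25 (adjusted p = 0.00052). Tubb2b was far higher in wildtype B progenitors, at 10.26, and its close relative Tubb2a could share its probes. Mtm1, a lipid phosphatase needed in muscle, rose by 1.98 ± 0.29 (adjusted p = 0.0055) on its leading probe set. Its other probe sets stood at 1.81, called, and -1.54, not called. Car3, a carbonic anhydrase of muscle and fat, was bright in both genotypes and rose by 1.45 ± 0.18 (adjusted p = 0.00152), with 11.58, 11.50 and 11.66 in hypomorph MP, against 10.08, 10.12 and 10.21 in wildtype MP. Its second probe set had a log2 fold change of 0.44, which was not called. Tnnt1, the troponin T of slow muscle, rose by 1.54 ± 0.27 (adjusted p = 0.0147). Tnnt1 lost its call without hypomorph replicate 1 or 2 or wildtype replicate 1 (adjusted p = 0.0919 to 0.0985). Of 29 tested genes in the list of muscle-type and cytoskeletal genes, 2 rose, Ckm and Tnnt1, none fell, and the median was 0.08.

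Of the rises, 12 belong to genes of myeloid or other immune cells. Wfdc21, a small secreted protein of inflamed and mature myeloid cells, stood at 9.02, 9.74 and 8.42 in hypomorph MP, against 6.16, 6.52 and 6.28 in wildtype MP, a log2 fold change of 2.74 ± 0.30 (adjusted p = 0.000502). Cma1, the chymase of mast cells, stood at 7.53, 8.46 and 8.97 in hypomorph MP, against 5.44, 6.36 and 5.45 in wildtype MP, a log2 fold change of 2.57 ± 0.42 (adjusted p = 0.00994). S100a6, a calcium-binding protein, stood at 7.62, 8.41 and 7.62 in hypomorph MP, against 4.67, 6.06 and 5.42 in wildtype MP and rose by 2.50 ± 0.35 (adjusted p = 0.00317). In wildtype HSC S100a6 was at 8.46, above every MP array. Clec11a, a growth factor for blood progenitors and bone, stood at 9.17, 9.51 and 8.78 in hypomorph MP, against 6.38, 6.95 and 6.83 in wildtype MP and rose by 2.43 ± 0.24 (adjusted p = 0.000214). All of these kept the hypomorph arrays above every wildtype MP array.

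Surface receptors and enzymes completed that group. Pdcd1, the inhibitory receptor PD-1, rose by 2.18 ± 0.33 (adjusted p = 0.00552), with 7.74, 7.55 and 7.36 in hypomorph MP, against 5.20, 5.80 and 5.09 in wildtype MP. Vcam1, an adhesion molecule, rose by 2.16 ± 0.32 (adjusted p = 0.0055) on its brightest probe set, with 8.96, 8.96 and 8.64 in hypomorph MP, against 6.86, 6.69 and 6.52 in wildtype MP. The other probe sets of Vcam1 stood at 0.31 and 0.29 and were not called. Mgst2, which makes leukotriene C4, rose by 1.96 ± 0.27 (adjusted p = 0.00317). Trem1, an amplifying receptor of neutrophils and monocytes, rose by 1.45 ± 0.22 (adjusted p = 0.00681). Padi4, the enzyme that citrullinates histones in neutrophils, rose by 1.44 ± 0.27 (adjusted p = 0.0256). Gda, a guanine deaminase, rose by 1.36 ± 0.21 (adjusted p = 0.00721), but its other probe sets were not called, at 0.09 and 0.40. Thy1, a surface protein of T cells and stem cells, rose by 1.22 ± 0.23 (adjusted p = 0.0248), and Fcgr3, an Fc receptor, by 1.11 ± 0.18 (adjusted p = 0.0108). Padi4 and Thy1 averaged 7.88 and 7.42 in wildtype HSC, above every MP array. Cma1 lost its call without hypomorph replicate 2 or wildtype replicate 1 or 3 (adjusted p = 0.0588 to 0.0665). Trem1 lost its call without wildtype replicate 3 (adjusted p = 0.0529). Padi4 lost its call without hypomorph replicate 1, 2 or 3 or wildtype replicate 1 or 3 (adjusted p = 0.06 to 0.142). Gda lost its call without hypomorph replicate 2 (adjusted p = 0.0515). Thy1 lost its call without hypomorph replicate 1, 2 or 3 or wildtype replicate 1 or 3 (adjusted p = 0.0876 to 0.178). Fcgr3 lost its call without hypomorph replicate 1 or 2 or wildtype replicate 1 or 3 (adjusted p = 0.061 to 0.0857).

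Markers of mature granulocytes were higher in hypomorph MP together with these genes, without passing the test. Of 10 such markers 7 were tested, none was called, and their mean was 6.69 to 7.82 on hypomorph arrays and 6.05 to 6.42 on wildtype arrays. S100a8, a neutrophil calcium-binding protein, stood at 9.71, 11.03 and 10.46 in hypomorph MP, against 8.06, 8.92 and 7.99 in wildtype MP, a difference of 2.08 ± 0.62 (adjusted p = 0.183). Lcn2, a secondary granule protein, stood at 7.54, 7.29 and 7.62 in hypomorph MP, against 5.63, 5.70 and 6.11 in wildtype MP, a difference of 1.67 ± 0.39 (adjusted p = 0.0892). Ngp, another granule protein, overlapped between genotypes, with 6.18, 8.88 and 9.88 in hypomorph MP, against 8.02, 7.69 and 7.64 in wildtype MP. Markers of other cell types were averaged the same way, and the means without called markers were added after seeing the data. The 2 erythroblast markers tested averaged 5.39 to 6.12 in hypomorph MP, against 4.19 to 4.67 in wildtype MP. The 6 mast cell and basophil markers averaged 8.69 to 8.98 in hypomorph MP, against 8.14 to 8.47 in wildtype MP. Without Cma1, itself called, the other 5 averaged 8.92 to 8.98 in hypomorph MP, against 8.68 to 8.89 in wildtype MP. The 3 macrophage markers averaged 6.20 to 6.39 in hypomorph MP, against 5.69 to 5.76 in wildtype MP, but without the called Vcam1 the order turned round, with 4.98 to 5.11 in hypomorph MP, against 5.21 to 5.28 in wildtype MP. The 3 stromal and endothelial markers averaged 4.98 to 5.21 in hypomorph MP, against 4.63 to 4.83 in wildtype MP. The 5 megakaryocyte markers averaged 7.15 to 7.29 in hypomorph MP, against 7.17 to 7.49 in wildtype MP. Their part in the rise of Wfdc21, Trem1 or Padi4 was not tested. In a sorted bulk sample, more cells of a type and more RNA per cell cannot be told apart. In the wider list of 31 tested mature neutrophil and monocyte genes, Wfdc21 and Padi4 rose, none fell, and the median was 0.40 against -0.02 over all genes. The hypomorph arrays lay above all wildtype arrays for 12 of these 31 genes (38.7%, against 11.4% of all genes). They lay below for 5 of the 31 (16.1%, against 16.3% of all genes). Mpeg1 and Ccr2 were the lowest of the list, at -0.97 (adjusted p = 0.0895) and -0.85 (adjusted p = 0.129). Cma1 was the only called gene among 23 of mast cells, basophils and eosinophils, where the median was 0.27. The hypomorph arrays lay above all wildtype arrays for 8 of these 23 (34.8%, against 11.4% of all genes). For 1 of the 23 they lay below (4.35%, against 16.3%). Other mast cell markers were not called: Cpa3 of mast cell granules had 11.10, 11.10 and 11.70 in hypomorph MP, against 11.25, 11.18 and 10.87 in wildtype MP, and Ms4a2 of the IgE receptor had a difference of 0.27 ± 0.42 (adjusted p = 0.783).

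Among the 44 progenitor and primary granule genes tested, Fcgr3 rose, Serpinf1 fell and the median was 0.07. Dmkn came next, at 1.58 (adjusted p = 0.0555). Of the 44 genes, 12 had all hypomorph arrays above the wildtype arrays (27.3%, against 11.4% of all genes). Another 13 had them all below (29.5%, against 16.3% of all genes). Irf8, the regulator of monocyte and dendritic cell fate, stood at 10.51, 9.92 and 9.99 in hypomorph MP, against 11.35, 11.64 and 11.43 in wildtype MP, a difference of -1.34 ± 0.31 (adjusted p = 0.0895) that missed the threshold although the arrays did not overlap. Kit, the stem cell factor receptor, had a difference of -1.19 ± 0.42 (adjusted p = 0.241), and Cd34 one of -0.94 ± 0.36 (adjusted p = 0.27). Cebpa, the master regulator of granulocytes, had a difference of 0.40 ± 0.26 (adjusted p = 0.488), Gata1 of red cells one of -0.27 ± 0.28 (adjusted p = 0.668), and Id2, an inhibitor of helix-loop-helix factors, one of 1.10 ± 0.30 (adjusted p = 0.148). The 3 hypomorph arrays of Id2, at 8.71, 8.79 and 8.92, all exceeded the wildtype arrays, at 7.70, 7.78 and 7.64. None of 35 lineage transcription factors was called, and their median was 0.08. The erythroid list (51 genes, median -0.05) and the megakaryocyte list (26 genes, median -0.28) held no called gene either. Slc4a1, the anion exchanger of red cells, stood at 7.15, 5.40 and 7.33 in hypomorph MP, against 4.86, 4.51 and 4.02 in wildtype MP, a difference of 2.16 ± 0.65 (adjusted p = 0.185). In the megakaryocyte list, hypomorph arrays lay below all wildtype arrays for 13 of 26 genes (50%, against 16.3% of all genes), led by Mmrn1 at -1.41 (adjusted p = 0.168) and Plek at -1.27 (adjusted p = 0.143).

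Genes of growth and stress responses made up 7 more rises. Ccnd1, the cyclin that drives entry into the cell cycle, stood at 8.11, 8.26 and 7.98 in hypomorph MP, against 6.27, 5.15 and 5.53 in wildtype MP, a log2 fold change of 2.47 ± 0.42 (adjusted p = 0.0124). Its other probe sets had 1.63, called, and 1.81, not called. Perp, a membrane protein induced by p53, stood at 8.51, 8.95 and 8.78 in hypomorph MP, against 7.20, 6.19 and 6.85 in wildtype MP and rose by 2.00 ± 0.24 (adjusted p = 0.000952). Socs2, which restrains cytokine signals, rose by 1.84 ± 0.36 (adjusted p = 0.0329), with other probe sets at 0.76 and 0.11 that were not called. In wildtype HSC Socs2 averaged 8.53, above every MP array. Gadd45b rose by 1.20 ± 0.24 (adjusted p = 0.0391), with other probe sets at 0.82 and 0.37 that were not called. Snhg3, a host of small nucleolar RNAs, rose by 1.54 ± 0.28 (adjusted p = 0.0236). H3c7, a replication histone whose relatives are near-identical and could share its probes, rose by 1.22 ± 0.24 (adjusted p = 0.0374). Unc5cl, a receptor-like protein with a death domain, rose by 1.04 ± 0.18 (adjusted p = 0.0165). Only Perp of these 7 kept its call in every fit that left out an array. Ccnd1 lost its call without hypomorph replicate 1 or 2 or wildtype replicate 3 (adjusted p = 0.0595 to 0.0741). Socs2 lost its call without hypomorph replicate 2 or 3, wildtype replicate 1, 2 or 3 or HSC hypomorph replicate 2 (adjusted p = 0.0527 to 0.185). Gadd45b lost its call without hypomorph replicate 1 or 2, wildtype replicate 1 or 3, HSC hypomorph replicate 2 or B progenitor replicate 1 or 2 (adjusted p = 0.0527 to 0.236). Snhg3 lost its call without hypomorph replicate 1 or 2 or wildtype replicate 1 or 2 (adjusted p = 0.0525 to 0.14). H3c7 lost its call without hypomorph replicate 1, 2 or 3, wildtype replicate 1 or 3 or HSC hypomorph replicate 2 (adjusted p = 0.0607 to 0.236). Unc5cl lost its call without hypomorph replicate 1, 2 or 3 or wildtype replicate 1 or 3 (adjusted p = 0.0546 to 0.138).

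The p53 and cell cycle inhibitor list held Perp and Gadd45b as its only called genes among 37, with a median of 0.05. Mdm2, the p53 target that limits p53, had a log2 fold change of -0.75 (adjusted p = 0.198), and Ccng2 one of -0.80 (adjusted p = 0.247). None of 17 survival genes of the Bcl2 family was called, with a median of 0.08. Bcl2 was the lowest of them, with 8.76, 8.52 and 8.99 in hypomorph MP, against 9.85, 9.14 and 9.75 in wildtype MP and a difference of -0.82 ± 0.24 (adjusted p = 0.178).

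The other 11 genes that rose have less settled roles or none. Islr, an immunoglobulin-like protein of stromal cells, stood at 6.82, 7.95 and 7.28 in hypomorph MP, against 4.83, 5.03 and 4.77 in wildtype MP, a log2 fold change of 2.47 ± 0.40 (adjusted p = 0.0082). BC018473 stood at 9.68, 9.94 and 9.69 in hypomorph MP, against 7.96, 8.14 and 7.82 in wildtype MP and rose by 1.80 ± 0.25 (adjusted p = 0.00346). Gm128 rose by 1.73 ± 0.25 (adjusted p = 0.00403), Nhsl2 by 1.66 ± 0.28 (adjusted p = 0.0124) and 4921525O09Rik by 1.54 ± 0.32 (adjusted p = 0.0473). Gm10451 rose by 1.39 ± 0.27 (adjusted p = 0.0294), and Scnn1a, a subunit of the epithelial sodium channel, by 1.19 ± 0.24 (adjusted p = 0.0473). Gm13012 had closely spaced arrays, with 8.19, 8.25 and 8.14 in hypomorph MP, against 7.09, 7.10 and 7.03 in wildtype MP and a log2 fold change of 1.12 ± 0.17 (adjusted p = 0.0055). Ncmap, a myelin protein, rose by 1.11 ± 0.18 (adjusted p = 0.0082), Noxred1 by 0.98 ± 0.20 (adjusted p = 0.0402) and Tmem53 by 0.97 ± 0.18 (adjusted p = 0.0236). BC018473, Gm128 and Gm13012 were called in every fit that left out 1 array. Islr lost its call without hypomorph replicate 2 or wildtype replicate 3 (adjusted p = 0.0529 to 0.0567). Nhsl2 lost its call without hypomorph replicate 1 or 2 or wildtype replicate 1 or 3 (adjusted p = 0.0727 to 0.0855). 4921525O09Rik lost its call without hypomorph replicate 1, 2 or 3, wildtype replicate 1 or 3, HSC hypomorph replicate 1 or 2 or HSC wildtype replicate 1 or 2 (adjusted p = 0.0511 to 0.26). Gm10451 lost its call without any 1 of the 6 MP arrays (adjusted p = 0.0555 to 0.138). Scnn1a lost its call without hypomorph replicate 1, 2 or 3, wildtype replicate 1 or 3, HSC hypomorph replicate 1 or 2 or HSC wildtype replicate 1 or 2 (adjusted p = 0.0501 to 0.287). Ncmap lost its call without hypomorph replicate 2 or wildtype replicate 1 (adjusted p = 0.0515 to 0.0652). Noxred1 lost its call without hypomorph replicate 1 or 2, wildtype replicate 1, 2 or 3, HSC hypomorph replicate 2 or B progenitor replicate 1 or 2 (adjusted p = 0.0525 to 0.205). Tmem53 lost its call without hypomorph replicate 1 or 2 or wildtype replicate 1 or 3 (adjusted p = 0.0758 to 0.178).

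**Figure D2:**
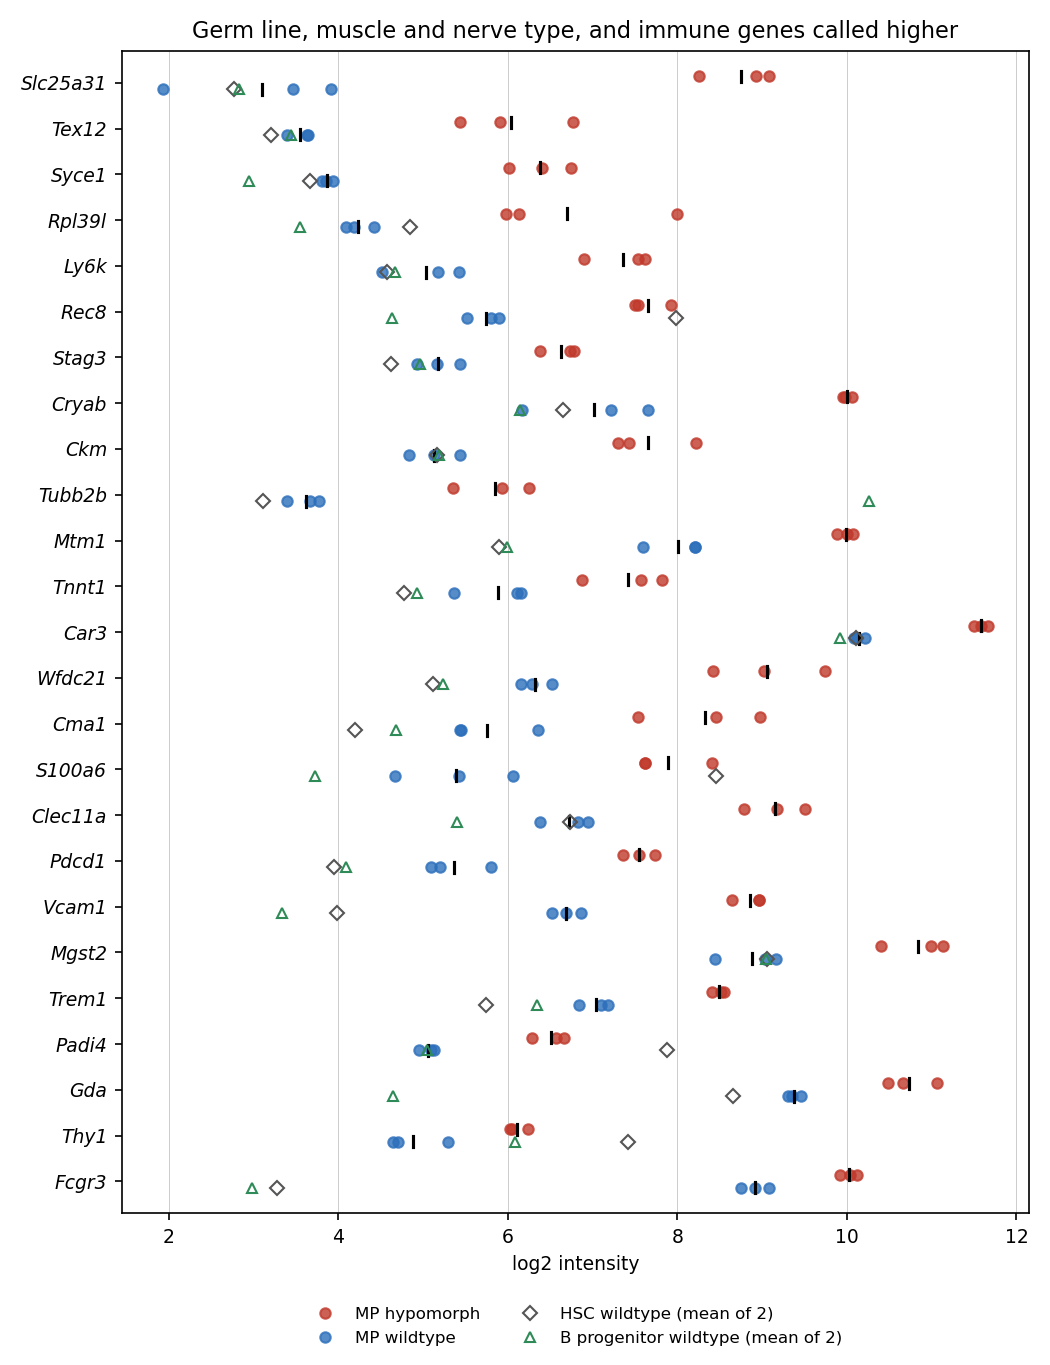
Log2 intensity (x axis) of 25 genes called higher, 1 per row, on each hypomorph MP array (red) and wildtype MP array (blue), with black ticks at the group means and open symbols for the wildtype HSC and B progenitor means. The 3 red points lie to the right of the 3 blue points in every row, by the widest margin for Slc25a31.

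Among the falls were 5 lymphoid genes, low on all 3 hypomorph arrays. Dntt encodes terminal transferase, which adds bases at antigen receptor joins and marks lymphoid priming in early progenitors. It stood at 6.30, 5.87 and 5.95 in hypomorph MP, against 10.64, 9.82 and 10.18 in wildtype MP, a log2 fold change of -4.18 ± 0.29 (adjusted p = 1e-05), about 18.1-fold lower. Wildtype HSC were at 8.37 and B progenitors at 12.98, both above hypomorph MP. All 3 probe sets of Dntt were called, at -4.18, -3.94 and -2.16. Sdc1, the surface proteoglycan CD138 of B lineage cells, stood at 3.47, 2.73 and 3.55 in hypomorph MP, against 5.55, 6.17 and 5.87 in wildtype MP, a log2 fold change of -2.61 ± 0.29 (adjusted p = 0.00052). Of its other probe sets, at -0.92, -0.16 and 0.29, none was called.

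Smaller falls were seen in Bach2, Flt3 and Il7r. Bach2, a repressor needed in B cells, stood at 4.41, 5.0 and 5.49 in hypomorph MP, against 6.81, 6.24 and 6.50 in wildtype MP and fell by 1.55 ± 0.30 on the log2 scale (adjusted p = 0.0327). Its other probe sets stood at 0.02 and 0.17 and were not called. Flt3, the receptor that marks multipotent progenitors with lymphoid potential, stood at 7.37, 7.72 and 7.60 in hypomorph MP, against 8.98, 9.02 and 9.08 in wildtype MP, a log2 fold change of -1.46 ± 0.30 (adjusted p = 0.0412). Il7r, the receptor that common lymphoid progenitors depend on, stood at 3.67, 4.08 and 4.29 in hypomorph MP, against 5.84, 4.97 and 5.17 in wildtype MP, a log2 fold change of -1.31 ± 0.26 (adjusted p = 0.0412). Its second probe set had -0.50 and was not called. Bach2 lost its call without hypomorph replicate 1 or 2, wildtype replicate 1 or 3 or B progenitor replicate 1 or 2 (adjusted p = 0.0555 to 0.209). Flt3 lost its call without any 1 of the 6 MP arrays or HSC hypomorph replicate 1 or 2 (adjusted p = 0.051 to 0.188). Il7r lost its call without hypomorph replicate 1, 2 or 3, wildtype replicate 1 or 3 or B progenitor replicate 1 or 2 (adjusted p = 0.0534 to 0.254). Il7r also lost it when only the 6 MP arrays were fitted (adjusted p = 0.0529). In the list of 36 tested lymphoid priming genes, Dntt, Flt3 and Il7r fell, none rose, and the median was -0.38 against -0.02 over all genes. The hypomorph arrays lay below all wildtype arrays for 14 of the 36 (38.9%, against 16.3% of all genes). Satb1, a chromatin organiser of lymphoid cells, had a log2 fold change of -1.06 (adjusted p = 0.143), and Mn1 one of -1.20 (adjusted p = 0.149). The B lineage list held 35 genes, of which Bach2 fell and the median was 0.09. In the T and NK cell list Thy1 rose, none of the 17 fell, and the median was 0.13.

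A set of 9 falls covered regulators of growth and stem cell genes. Hmga2, a chromatin protein of fetal and self-renewing stem cells, stood at 5.73, 5.25 and 5.66 in hypomorph MP, against 9.47, 8.62 and 8.55 in wildtype MP, a log2 fold change of -3.33 ± 0.27 (adjusted p = 4.02e-05), about 10.1-fold lower. Its 3 probe sets lay between -3.33 and -3.07, and all were called. Mmp2, a protease that cuts matrix collagen, stood at 4.65, 4.30 and 4.77 in hypomorph MP, against 7.54, 7.38 and 7.76 in wildtype MP, a log2 fold change of -2.99 ± 0.26 (adjusted p = 6.94e-05). Ghr, the growth hormone receptor, stood at 4.05, 3.03 and 3.14 in hypomorph MP, against 5.68, 5.42 and 5.22 in wildtype MP, a log2 fold change of -2.03 ± 0.25 (adjusted p = 0.00122), and its second probe set was not called, at -0.29. Met, the receptor of hepatocyte growth factor, stood at 4.72, 4.35 and 4.51 in hypomorph MP, against 6.16, 6.24 and 6.99 in wildtype MP, a log2 fold change of -1.93 ± 0.26 (adjusted p = 0.00285). For all of them every hypomorph array lay below every wildtype MP array.

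The 6 tested stem cell markers, Fgd5 among them, averaged 5.67 to 6.03 on hypomorph arrays and 6.14 to 6.56 on wildtype arrays, against 9.49 in wildtype HSC, and their part in these falls was not tested. Without Fgd5 the other 5 overlapped, at 5.77 to 6.30 in hypomorph MP and 6.05 to 6.58 in wildtype MP. Fgd5, an exchange factor that marks HSC, stood at 5.16, 4.41 and 4.64 in hypomorph MP, against 6.45, 6.61 and 6.36 in wildtype MP, a log2 fold change of -1.74 ± 0.29 (adjusted p = 0.0102). Wildtype HSC were at 10.23, well above wildtype MP. Serpinf1, an anti-angiogenic secreted protein, fell with 8.00, 7.90 and 7.93 in hypomorph MP, against 9.37, 9.96 and 9.42 in wildtype MP, a log2 fold change of -1.64 ± 0.20 (adjusted p = 0.000952), while its second probe set was not called, at -0.37. Garem1, an adaptor of growth factor receptors, had a log2 fold change of -1.49 ± 0.24 (adjusted p = 0.0079). Among Wnt pathway genes, Znrf3, which removes Wnt receptors from the surface, had -1.58 ± 0.33 (adjusted p = 0.0492), and Fzd8, such a receptor, -1.29 ± 0.24 (adjusted p = 0.0259). Fgd5 lost its call without hypomorph replicate 2 or wildtype replicate 1 (adjusted p = 0.0516 to 0.0712). Garem1 lost its call without hypomorph replicate 1 (adjusted p = 0.0518). Znrf3 lost its call without hypomorph replicate 1, 2 or 3, wildtype replicate 1 or 3, HSC hypomorph replicate 1 or B progenitor replicate 1 or 2 (adjusted p = 0.0556 to 0.285). Fzd8 lost its call without hypomorph replicate 1, 2 or 3 or wildtype replicate 1 or 3 (adjusted p = 0.073 to 0.178). The stem cell list held 55 tested genes, of which Hmga2 and Fgd5 fell, Socs2 rose, and the median was -0.25. Hypomorph arrays lay below all wildtype arrays for 17 of them (30.9%, against 16.3% of all genes). None of 13 Hox and stem cell transcription factor genes was called, with a median of 0.12, and Meis1 was the lowest, at -1.08 ± 0.30 (adjusted p = 0.156).

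The largest fall of the array was in Hspa1b, an inducible heat shock protein of the Hsp70 family, and its arrays were uneven. Hspa1b stood at 8.96, 5.11 and 5.37 in hypomorph MP, against 10.21, 11.84 and 12.12 in wildtype MP, a log2 fold change of -4.91 ± 0.86 (adjusted p = 0.0147). Hypomorph replicate 1 lay between the other hypomorph arrays and the wildtype arrays. All 3 of its probe sets were called, at -4.91, -5.53 and -4.87. Its near-identical neighbour Hspa1a had a log2 fold change of -3.82 (adjusted p = 0.0781), and the probes of these 2 genes cannot be told apart with certainty. Wildtype HSC, at 6.93, and B progenitors, at 7.03, were far below the wildtype MP arrays. Hspa1b lost its call without hypomorph replicate 2 or 3 or wildtype replicate 3 (adjusted p = 0.0611 to 0.0944). It also lost it when only the 6 MP arrays were fitted (adjusted p = 0.0548). None of the other 31 tested immediate early and heat shock genes was called, and the median of all 32 was 0.05. Hsph1, another heat shock protein, had a log2 fold change of -0.55 (adjusted p = 0.184), and Jund, an immediate early factor, one of 1.18 (adjusted p = 0.141).

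The remaining 16 falls were mixed in function. Pdzph1 stood at 4.26, 3.57 and 3.37 in hypomorph MP, against 6.17, 6.52 and 5.99 in wildtype MP, a log2 fold change of -2.49 ± 0.23 (adjusted p = 9.85e-05). Dcaf12l1, an X-linked gene, stood at 3.97, 4.96 and 4.19 in hypomorph MP, against 6.97, 6.48 and 6.96 in wildtype MP, a log2 fold change of -2.43 ± 0.31 (adjusted p = 0.00142), and its second probe set was not called, at -0.63. Klk8, a secreted protease, stood at 7.73, 8.10 and 6.51 in hypomorph MP, against 9.27, 10.01 and 9.50 in wildtype MP, a log2 fold change of -2.15 ± 0.36 (adjusted p = 0.0124). The hypomorph arrays of these 3 genes all lay below the wildtype arrays. Epb41l4b, a membrane skeleton protein, had -2.02 ± 0.34 (adjusted p = 0.0124) and other probe sets at -0.28 and 0.04 that were not called. Rhobtb3 had -2.01 ± 0.38 (adjusted p = 0.0276) and a second probe set at 0.11 that was not called. The further members were Plekha8 at -1.64 ± 0.30 (adjusted p = 0.0236), Zfp105 at -1.50 ± 0.23 (adjusted p = 0.00557) and Tmem178 at -1.48 ± 0.28 (adjusted p = 0.0246). Zfp105 and Zfp618, the second of these at -1.11 ± 0.17 (adjusted p = 0.00721), encode zinc finger proteins, as does Zkscan4 at -0.98 ± 0.20 (adjusted p = 0.0412).

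Vash2, which trims tubulin, fell by 1.43 ± 0.25 on the log2 scale (adjusted p = 0.0157). Tmem98 had -1.39 ± 0.27 (adjusted p = 0.0374), and Reep1, which shapes the endoplasmic reticulum, -1.32 ± 0.26 (adjusted p = 0.0388). Reep1, Pdzph1 and Tmem178 passed the filter on dim signals through wildtype MP arrays alone. They were tested only because they were high in wildtype MP, so nothing is read from their share in the count of falls. Irgm1, an interferon-induced GTPase, had -1.36 ± 0.27 (adjusted p = 0.0412) and was the only called gene among 51 of the interferon response, whose median was -0.02. Nefh, a neurofilament protein, stood at 6.77, 6.32 and 6.33 in hypomorph MP, against 7.63, 7.78 and 7.69 in wildtype MP, a log2 fold change of -1.23 ± 0.19 (adjusted p = 0.00681). Tpm4, a tropomyosin of non-muscle cells, had the smallest change of all 75 genes and tight arrays, with 7.22, 7.25 and 7.35 in hypomorph MP, against 8.16, 8.28 and 8.25 in wildtype MP and -0.96 ± 0.16 (adjusted p = 0.0122). Second probe sets of Plekha8, at -0.05, and of Zfp618, at -0.37, -0.44 and 0.27, were not called. Plekha8 and Tmem178 lost their calls when only the 6 MP arrays were fitted (adjusted p = 0.0617 and 0.0628). Klk8 lost its call without wildtype replicate 3 (adjusted p = 0.0542). Epb41l4b lost its call without hypomorph replicate 1 or 2 or wildtype replicate 1 or 3 (adjusted p = 0.069 to 0.0866). Rhobtb3 lost its call without hypomorph replicate 2 or 3 or wildtype replicate 1 or 3 (adjusted p = 0.0922 to 0.178). Plekha8 lost its call without hypomorph replicate 1 or 2 or wildtype replicate 1 or 3 (adjusted p = 0.0567 to 0.135). Tmem178 lost its call without hypomorph replicate 2 or 3 or wildtype replicate 3 (adjusted p = 0.066 to 0.145). Vash2 lost its call without hypomorph replicate 1 or 3 or wildtype replicate 1 or 3 (adjusted p = 0.0552 to 0.117). Tmem98 lost its call without any 1 of the 6 MP arrays, HSC hypomorph replicate 2 or B progenitor replicate 1 or 2 (adjusted p = 0.0527 to 0.209). Irgm1 lost its call without hypomorph replicate 1 or 2, wildtype replicate 1 or 3, HSC hypomorph replicate 2 or B progenitor replicate 1 or 2 (adjusted p = 0.0666 to 0.27). Reep1 lost its call without hypomorph replicate 1, 2 or 3, wildtype replicate 1 or 3 or HSC hypomorph replicate 2 (adjusted p = 0.0601 to 0.24). Nefh lost its call without hypomorph replicate 2 (adjusted p = 0.0515). Zkscan4 lost its call without any 1 of the 6 MP arrays or B progenitor replicate 1 or 2 (adjusted p = 0.0528 to 0.236). Tpm4 lost its call without hypomorph replicate 1 or 2 or wildtype replicate 1 or 3 (adjusted p = 0.0578 to 0.0787).

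**Figure D3:**
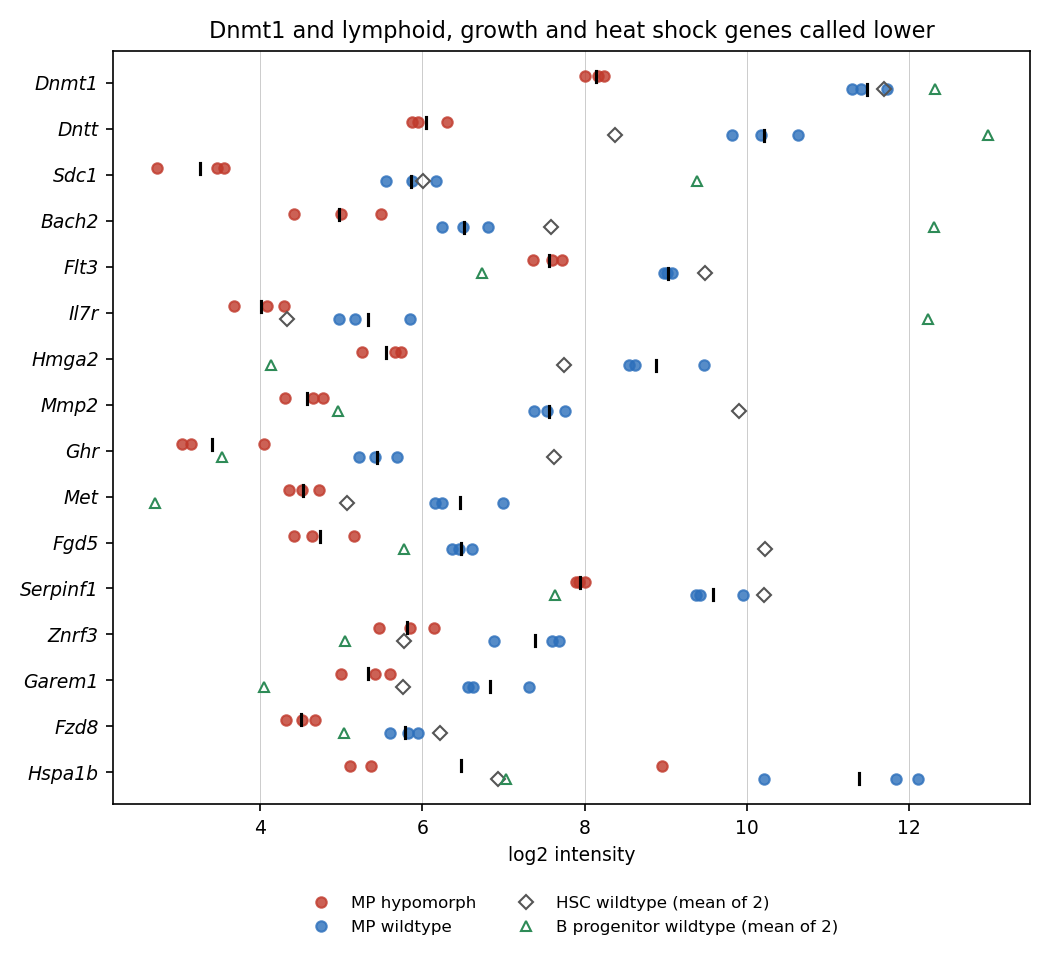
Log2 intensity (x axis) of Dnmt1 and 15 further genes called lower, 1 per row, on each hypomorph MP array (red) and wildtype MP array (blue), with black ticks at the group means and open symbols for the wildtype HSC and B progenitor means. Red lies left of blue in every row, and Hspa1b shows the widest scatter, with 1 hypomorph array at 8.96.

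Of the 27 lists examined, 11 held no called gene, and imprinted and cell cycle genes were among them. None of 34 imprinted genes was called, with a median of 0.00. Ndn came closest, with 5.94, 5.85 and 6.35 in hypomorph MP, against 6.98, 6.64 and 7.34 in wildtype MP and a difference of -0.94 ± 0.21 (adjusted p = 0.0687), and Meg3 stood at 5.94, 5.90 and 5.97 in hypomorph MP, against 5.79, 6.0 and 5.55 in wildtype MP, a difference of 0.16 ± 0.21 (adjusted p = 0.741). None of 19 genes of repeat silencing and its response was called, with a median of -0.07. Tut4, a terminal uridylyl transferase, had the smallest p among them, with a difference of -1.26 ± 0.31 (adjusted p = 0.114). Cell cycle genes held no call: the median was -0.11 over 50 DNA replication genes and -0.24 over 58 mitosis genes. Hypomorph arrays lay below all wildtype arrays for 18 of the 50 (36%) and 18 of the 58 (31%), against 16.3% of all genes. Dtl, which guards replication licensing, had a difference of -0.79 ± 0.25 (adjusted p = 0.197), and Kif20b, a mitotic kinesin, one of -0.87 ± 0.25 (adjusted p = 0.167). Of 21 glycolysis genes none was called, with a median of -0.01, and Pfkm had a difference of -0.63 ± 0.30 (adjusted p = 0.342). Flt3 and Il7r fell among 29 cytokine and chemokine receptors, where the median was -0.20. Among 24 macrophage and dendritic cell genes Vcam1 rose, Flt3 fell and the median was -0.12. Thy1 rose and Mmp2 fell among 22 stroma and endothelial genes, with a median of 0.03. The 4 sex-linked genes were not called, with a median of -0.25. The strip plot of the lists shows single genes far out and medians close to zero.

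**Figure D4:**
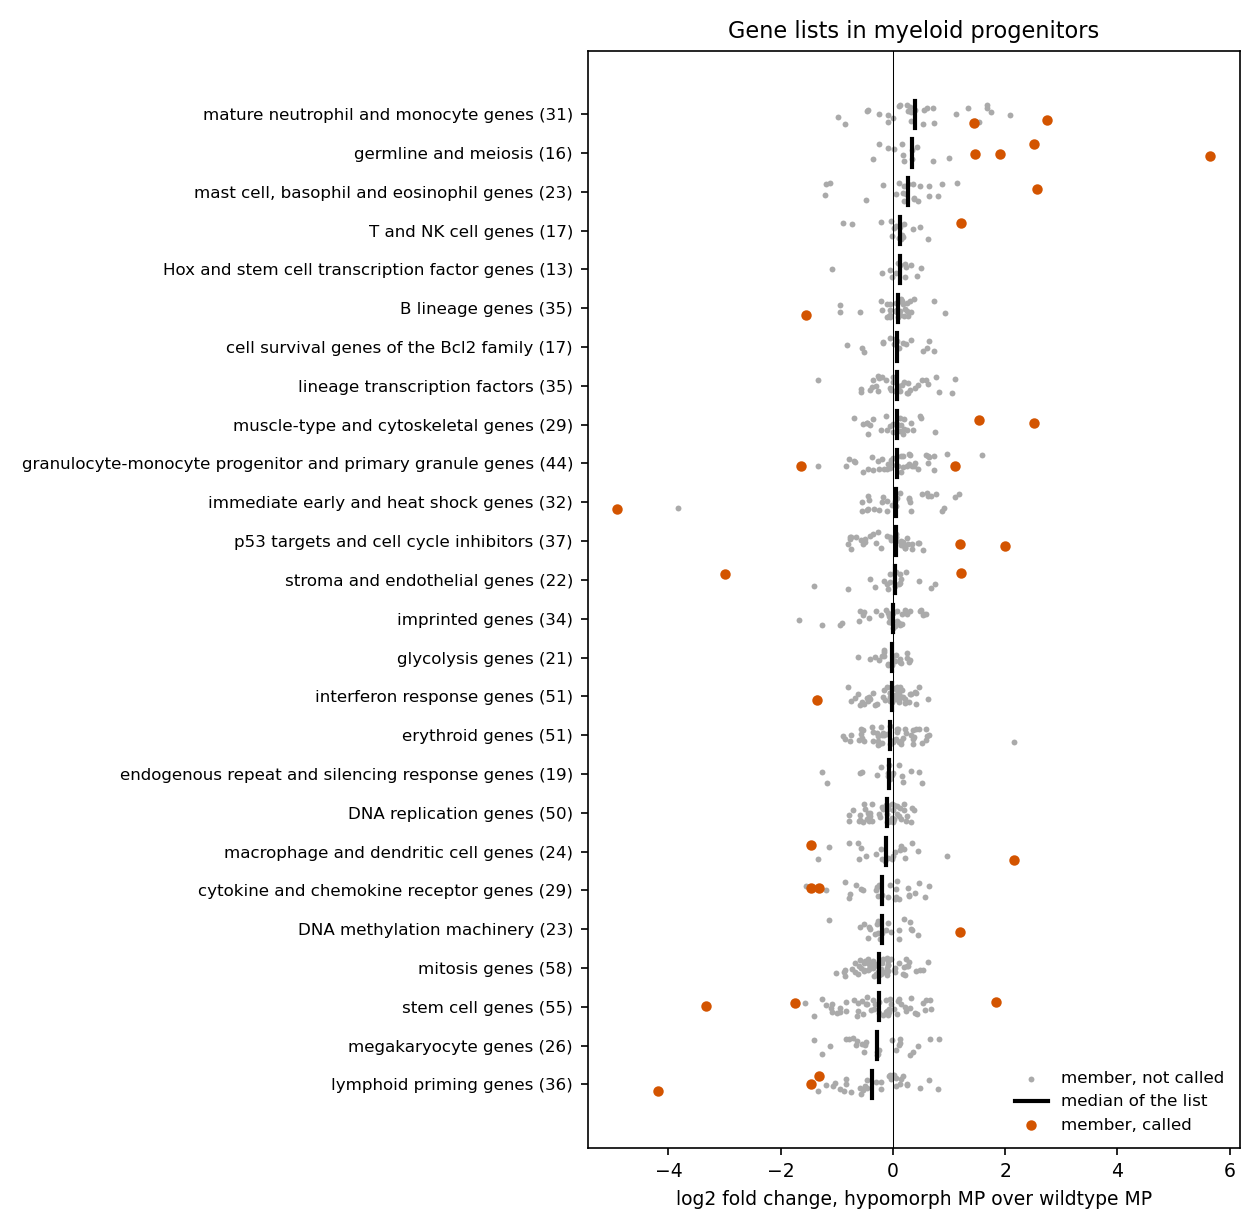
Log2 fold change of hypomorph MP over wildtype MP (x axis) for the tested members of 26 gene lists (rows, with the number tested), where orange points are called genes, grey points are not called and black bars are medians. Medians run from -0.38 in the lymphoid priming list to 0.40 in the mature neutrophil and monocyte list, and called genes lie far from them.

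The genotype effect was also measured in HSC, on other arrays, which allows the 75 genes to be set beside the stem cell. In HSC 1380 genes were called (10.8%), 686 higher (5.37%) and 694 lower (5.44%). Of the 43 genes that rose in MP, 21 also rose in HSC, which is 48.8% of the MP and 3.06% of the HSC calls. Of the 32 that fell in MP, 13 also fell in HSC, 40.6% of the MP and 1.87% of the HSC calls. BC018473, Gda and Tmem53 rose in MP and fell in HSC, and Tpm4 fell in MP and rose in HSC. The 7 germ line genes rose in both populations, and none of their effects was called different. Slc25a31, Syce1 and Tex12 lay below 4.64 on every wildtype array and passed the filter through hypomorph arrays alone. Nothing is therefore read from this count. Slc25a31 rose by 5.70 ± 0.56 (adjusted p = 6.52e-05) in HSC, with a difference between the populations of -0.06 ± 0.76 (adjusted p = 0.974), both measured against a very dim wildtype signal. Cryab and Ccnd1 rose in HSC as well, by 2.66 ± 0.44 (adjusted p = 0.00227) and 2.73 ± 0.47 (adjusted p = 0.00296). The difference of effects itself was called for 720 genes (5.64%), 303 positive (2.37%) and 417 negative (3.27%), and for 25 of the 75 genes, 17 that rose and 8 that fell. Without a single array this count ran from 242 to 1447, falling to 242 without wildtype MP replicate 1 and reaching 1447 without HSC hypomorph replicate 3. It was also over 1.5 times away from 720 without hypomorph MP replicate 1 (374) or 2 (293), wildtype MP replicate 2 (1244) or 3 (247), HSC hypomorph replicate 2 (285), and HSC wildtype replicate 1 (1117) or 2 (321).

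Dntt differed most between the populations among the genes that fell. It was called in MP and not in HSC, where the effect was 0.42 ± 0.33 (adjusted p = 0.46), and the difference, MP minus HSC, was -4.59 ± 0.44 (adjusted p = 0.000222). For Pdzph1 the HSC effect was 0.16 ± 0.26 (adjusted p = 0.741), a difference of -2.65 ± 0.35 (adjusted p = 0.00131). Pdzph1 averaged 2.75 in wildtype HSC and 2.91 in hypomorph HSC, far below 4.64. A fall in HSC could hardly show at that level, so nothing is read from this difference. Hmga2 fell in both, with -1.26 ± 0.30 (adjusted p = 0.0181) in HSC and a difference of -2.07 ± 0.41 (adjusted p = 0.0125). Mmp2 fell more in HSC, with -4.52 ± 0.29 (adjusted p = 1.98e-06), a difference of 1.53 ± 0.39 (adjusted p = 0.0362). The other four lymphoid genes that fell in MP had differences that were not called, of -1.54 ± 0.44 (adjusted p = 0.0569) for Sdc1, -0.88 ± 0.45 (adjusted p = 0.252) for Bach2, -0.84 ± 0.44 (adjusted p = 0.26) for Flt3 and -0.79 ± 0.40 (adjusted p = 0.24) for Il7r.

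Among the genes that rose, the MP effect exceeded that in HSC for BC018473, by 2.99 ± 0.38 (adjusted p = 0.00131), Socs2, by 2.62 ± 0.54 (adjusted p = 0.0153), and Gda, by 2.34 ± 0.32 (adjusted p = 0.00168). It also did for Mgst2, by 2.18 ± 0.41 (adjusted p = 0.0103), Wfdc21, by 1.84 ± 0.45 (adjusted p = 0.0307), and Ckm, by 1.72 ± 0.44 (adjusted p = 0.0375). Fcgr3 went the other way, with an HSC effect of 2.72 ± 0.21 (adjusted p = 9.24e-06) and a difference of -1.61 ± 0.28 (adjusted p = 0.00646). Among proliferation genes the called differences ran one way. For the 58 mitosis genes 38 differences were called negative and none positive, with a median difference of -1.50, and for the 50 DNA replication genes 16 were negative and none positive, with a median of -1.04. Over all genes 3.27% were negative and the median was 0.09. In HSC 49 of these mitosis genes rose and 1 fell, and 24 of the replication genes rose. Ccr1, Depdc1a, Esco2 and Ccne2 had negative differences of -5.08, -4.75, -4.36 and -4.30. Their wildtype HSC means, of 2 arrays each, were 3.57, 3.06, 2.86 and 3.94, all below 4.64. Whether such dim signals exceed background is not known, so the size of these differences is uncertain. Ccr1, a chemokine receptor, stood at 9.92, 9.48 and 9.92 in hypomorph MP, against 10.20, 9.56 and 9.82 in wildtype MP, and Ccne2, a cyclin of DNA replication, at 7.53, 7.08 and 7.83 in hypomorph MP, against 8.32, 7.44 and 8.29 in wildtype MP, neither of them called in MP.

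**Figure D5:**
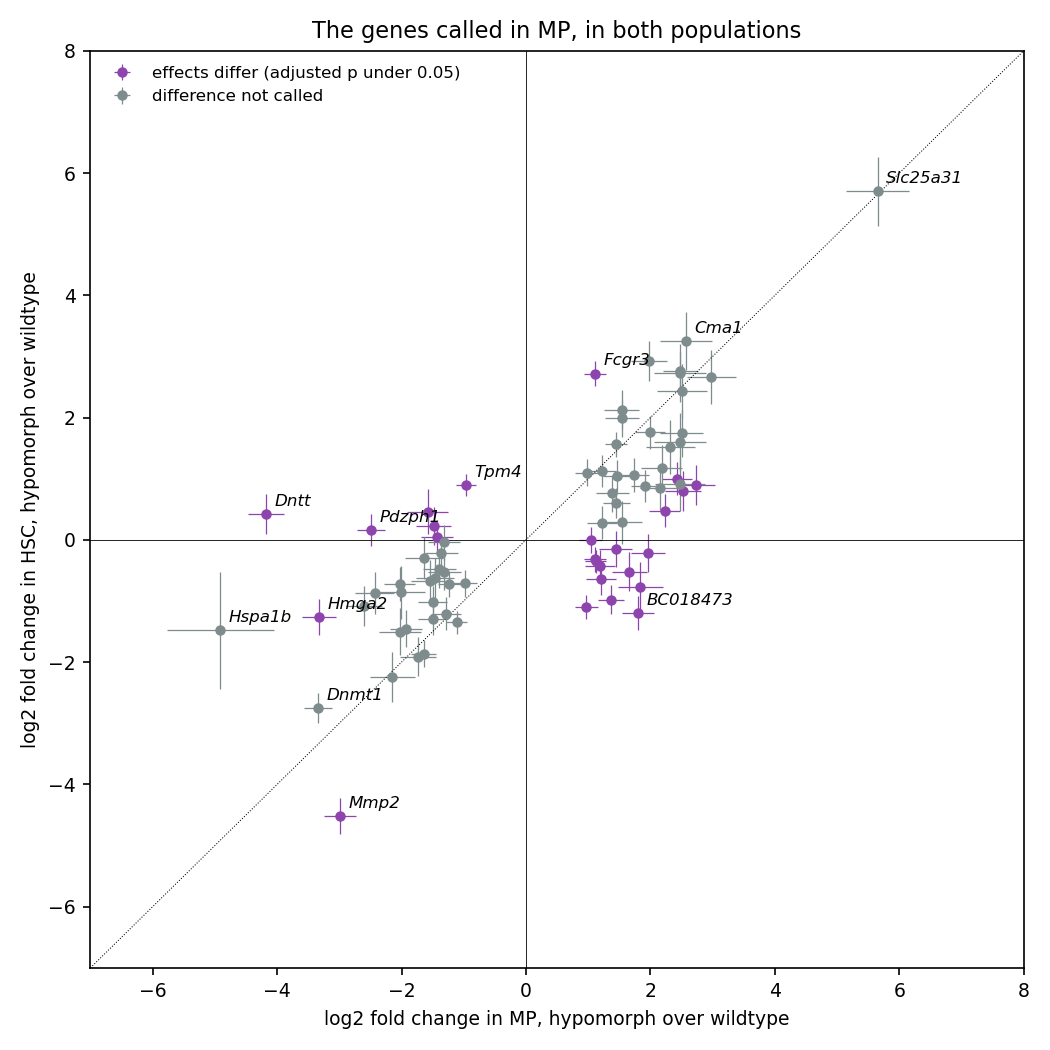
Log2 fold change of hypomorph over wildtype in MP (x axis) and in HSC (y axis) for the 75 genes called in MP, with standard errors as bars, purple where the difference of the effects was called and a dotted line at equality. Slc25a31 lies at 5.65 and 5.70, both against a wildtype signal near the lowest of the array, while Dntt lies at -4.18 in MP and 0.42 in HSC.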

How the data were processed

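The values are log2 intensities of 45101 probe sets that the authors normalized with RMA, per the submitters' processing notes; no version is named there. The deposited table held 24 columns, 13 of a first normalization, used here, and 11 of a second normalization of the same arrays, which are not replicates. Probe sets with 1 gene symbol in GEO's platform annotation (34958) were kept, 932 with several symbols were left out, and 9211 with none were tested apart. Each gene was represented by its brightest probe set on average, and a gene was tested where at least 2 of 13 arrays reached 4.64, the median of all values, which left 12765 of 18194 genes. No detection calls were used, and the number of arrays limits the precision. limma 3.58.1 in R 4.3.3 fitted 1 model of 5 groups (8 residual degrees of freedom), with contrasts for hypomorph against wildtype in MP, in HSC and for their difference, Benjamini-Hochberg adjustment and a threshold of 0.05. Tables were made with Python 3.11.15 and pandas 2.3.3, and the fit was tested on simulated data. Named in the text are the called genes, up to 3 called members of each list or the one with the smallest p, the largest differences from HSC, and Dnmt1, Gata1, Id2 and Cebpa. Further uncalled list members and markers were named after their values were seen. The comparison and the gene lists were chosen with earlier results of these data known.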

Additional observations from a re-analysis of the deposited data

Results flagged for a closer look

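The genotype effect (log2 fold change of hypomorph over wildtype) differed between MP and HSC for 720 genes by limma's test of the difference, and the named genes among them were marked for that reason. Values are the MP effect minus the HSC effect. Among genes that rose in MP, the difference was 2.99 for BC018473, 2.62 for Socs2, 2.34 for Gda, 2.18 for Mgst2, 2.18 for Nhsl2 and 2.06 for Tmem53. It was 1.85 for Gadd45b, 1.84 for Wfdc21, 1.75 for Tubb2b, 1.72 for Ckm, 1.62 for Scnn1a and 1.59 for Padi4. It was 1.47 for Gm13012, 1.43 for Clec11a, 1.43 for Ncmap and 1.04 for Unc5cl. Fcgr3 rose less in MP than in HSC, with -1.61. Among genes that fell in MP, it was -4.59 for Dntt, -2.65 for Pdzph1, -2.07 for Hmga2, -2.04 for Znrf3, -1.84 for Tpm4, -1.70 for Tmem178 and -1.46 for Vash2, and 1.53 for Mmp2, which fell more in HSC. Pdzph1 and Tmem178 averaged 2.75 and 2.40 in wildtype HSC, so dim that a fall there could hardly show.

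Genes that were not called in MP carried some of the widest differences. They were negative for Ccr1 (-5.08), Depdc1a (-4.75), Esco2 (-4.36), Ccne2 (-4.30), Dtl (-2.31), Plek (-2.24), Kif20b (-2.10) and Gata1 (-1.60). For Ccne2 the effect was -0.54 in MP (adjusted p = 0.4) and 3.76 in HSC (adjusted p = 2.73e-05). They were positive for Pde2a (2.97), Selenom (2.89), Meg3 (2.72), Krt8 (2.64) and Ndn (1.68). Ccr1, Depdc1a, Esco2 and Ccne2 averaged below 4.64 in wildtype HSC, so the size of their differences is uncertain.

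Probe sets with no gene symbol lie outside the comparison of genes. Of 3175 tested, 6 were called (0.189%), 5 higher and 1 lower in hypomorph MP. Here p-values were adjusted over all tested probe sets, with or without a symbol. The highest were 1454171_x_at, at 2.22, and 1431220_at, at 1.57, and the one that fell was 1423555_a_at, at -1.31.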

How the results depend on the processing

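Dnmt1 stayed called in every alternative, at -3.53 to -2.72. The number of called genes did not: leaving out 1 array gave 38 to 183 called, 21 to 75 higher, 16 to 108 lower, 38 to 173 called and changed at least 2-fold, and 242 to 1447 genes whose effect differed from HSC. An adjusted p under 0.1 gave 114 called, 53 lower and 1446 differing. A required log2 change of 0.5 gave 30 called, 19 higher, 11 lower, 30 at least 2-fold and 118 differing. With only the 6 MP arrays there were 164 called, 80 higher, 84 lower and 126 at least 2-fold, and 70 of the 75 genes remained. Array weights gave 4608 called, 1835 higher, 2773 lower, 551 at least 2-fold and 3915 differing; their estimation did not converge, with weights of 0.236 to 51.8. Weights estimated gene by gene, an alternative chosen after seeing the data, gave 3899, 1467, 2432, 556 and 2720. Beyond these settings, the cause of the changes was not tested. The second normalization of the arrays called 76 genes, 66 of the 75 among them, and centring the arrays called 94, 56 higher and 38 lower. Uncalled effects changed sign for Ccr1 (0.03 with centred arrays, 0.41 with the mean of probe sets, 0.06 without hypomorph replicate 2, 0.09 without wildtype replicate 1, at the lowest -0.24 without wildtype replicate 2), Krt8 (-0.16 with the mean of probe sets, -0.04 without hypomorph replicate 2, -0.05 without wildtype replicate 3, at the highest 0.18 without hypomorph replicate 3) and Xist (0.23 without hypomorph replicate 1, at the lowest -1.93 without hypomorph replicate 3).

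With the mean of its probe sets, a gene lost its call in 10 cases: Bach2 (-0.45), Epb41l4b (-0.75), Gadd45b (0.80), Gda (0.62), Mtm1 (0.75), Plekha8 (-0.85), Rhobtb3 (-0.95), Sdc1 (-0.85), Socs2 (0.90) and Zfp618 (-0.41). The labels do not say whether the replicate numbers pair the samples. Deviations of same-numbered MP arrays correlated at -0.048, 0.301 and 0.153, and those of differently numbered ones at -0.382 to 0.425. With 3 arrays of each genotype these values cannot settle it. A fit with the replicate number as a block called 59 genes, 34 higher and 25 lower, 57 of them among the 75, and 376 genes whose effect differed from HSC.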

Other observations

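The 75 called genes lay on 19 chromosomes, most often on chromosome 4, with 8, and chromosome 11, with 7. The shares of all tested genes on these chromosomes were not taken, so these counts are only a description. In 4 cases called genes lay near each other in the annotation, with up to 9 tested genes between them. How many such pairs would arise among any 75 genes was not tested, so nothing is read from their number. Tex12 and Cryab, on chromosome 9, both rose, and the 5 tested genes between them had log2 fold changes of -0.84 to 0.71, none called (adjusted p = 0.221 to 0.928). Trem1, of neutrophils and monocytes, and Unc5cl both rose on chromosome 17, and the 9 tested genes between them, among them Trem2 and Trem3, were not called (-0.69 to 1.20, adjusted p = 0.201 to 0.997). Nefh and Znrf3 both fell on chromosome 11, with 7 uncalled genes between them (-0.23 to 0.49, adjusted p = 0.425 to 0.926). Klk8 fell and Clec11a rose on chromosome 7, and the 6 genes between them, most of them further kallikreins, were not called (-0.72 to 0.40, adjusted p = 0.314 to 0.923).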
